A study of Malus domestica with 9 samples.

Results

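Of the 46558 genes listed for apple peel, 220 rose in steps after the fruit were unbagged: they were higher at 6 h of light than at 0 h, and higher again at 24 h than at 6 h. They were chosen on the measured values themselves. For each gene the FPKM (the number of sequenced fragments, scaled to the length of the gene and to the depth of the library) of the 3 libraries of a time were averaged, 1 was added and the log2 was taken. A member had to gain at least 1 log2 unit from 0 h to 6 h (called the early step here), at least 1 more from 6 h to 24 h (the late step), and a mean of at least 1 FPKM over the 9 libraries, which left 25362 genes to choose from. The members are 0.867% of these. Because the values that define the steps chose the members, the sizes of the steps are given below as a description and are not tested.

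The samples were peel of Malus domestica fruit that had been bagged and were then given light for 0 h (G0), 6 h (G6) or 24 h (G24) after unbagging. Each time had 3 libraries, which the design text calls biological replicates. Neither the cultivar nor what a replicate was (a fruit, a tree or a pool) is stated in the labels, so the spread between libraries may be partly technical. All groups share the bagging, and still bagged fruit were not sampled at the later times, so light, removal of the bag and, at 6 h, the time of day cannot be told apart.

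Bagging keeps light from a growing apple, and its peel then stays pale or green. In light the peel turns red by making anthocyanins, which are built from phenylalanine by the phenylpropanoid and flavonoid enzymes, finished by adding a sugar, and stored in the vacuole. The genes of these enzymes are switched on by complexes of MYB, bHLH and WD40 proteins, downstream of light receptors and of the factor HY5, and light also induces genes that protect chloroplasts and shield cells from ultraviolet. Which of the members belong to these processes is not given by the sources used here. The deposited table lists locus identifiers alone, and 0 of them were found among the 51804 genes of the RefSeq table used here, which is of the apple assembly GDT2T_hap1. Members are therefore described by level, by time and by identifier, and no gene function is assigned. The tissue label could not be checked against marker genes for the same reason.

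The libraries held 15.3 to 19.5 M (mega) reads in genes, worked out from the FPKM values as described under processing. The third 24 h library stood apart. Over the tested genes, the SD of its deviations from the 24 h mean was 0.328 log2 units, where the other 8 libraries had 0.123 to 0.195 around the means of their times. Its summed FPKM was 870488, against 635836 to 704706 in the others. The depth by which its FPKM were scaled, also worked out from the values, was 16.2 M, under its 19.5 M reads in genes. In each 0 h library that depth (16.4 to 19.0 M) was above the reads in genes (15.3 to 17.9 M). Results with each library scaled to the same summed FPKM are given below. Some of the 24 h results are also given without the third 24 h library. The others include it and were not all checked without it.

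Together the members took up a larger part of the peel transcriptome at each later time. Since the members were chosen to rise in both steps, a growing share follows largely from the rule and is a description. Their share of the summed FPKM was 0.339%, 0.330% and 0.333% in the 3 libraries of 0 h, 1.35%, 1.42% and 1.44% at 6 h, and 5.63%, 5.68% and 6.19% at 24 h. The times did not overlap, and the third 24 h library had the highest share. The means were 0.334% ± 0.00474, 1.41% ± 0.0468 and 5.84% ± 0.310 (SD, n = 3 each), and the 24 h mean of the other 2 libraries was 5.66%. Counted in reads and not per length, the share was 0.334% ± 0.00210, 1.34% ± 0.0544 and 5.89% ± 0.444 (SD, n = 3 each). A share does not depend on how a library is scaled. In bulk peel, more cells of a type that holds these transcripts and more RNA per cell cannot be told apart.

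**Figure D1:**
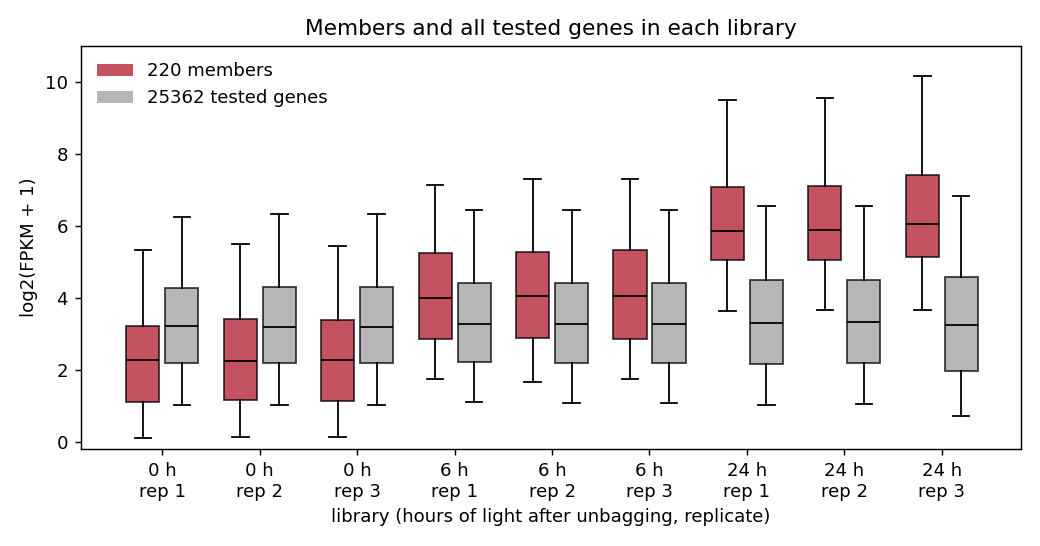
Level on the log2(FPKM + 1) scale in each of the 9 libraries (x axis: hours of light and replicate), for the 220 members (red, left of each pair) and all 25362 tested genes (grey, right). Boxes span the quartiles with the median as a line, and whiskers run from the 5th to the 95th percentile; the members' medians lie below those of the tested genes at 0 h and above them at 6 h and 24 h, while the grey boxes hardly move.

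The members started low and ended high. Their median level was 3.79 FPKM at 0 h, 15.2 FPKM at 6 h and 60.3 FPKM at 24 h, while the median over all tested genes was 8.23, 8.71 and 8.88 FPKM at these times. The quartiles of the members were 1.12 and 9.15 FPKM at 0 h, 6.15 and 38.5 FPKM at 6 h, and 33.9 and 150.1 FPKM at 24 h. At 0 h, 2 members were among the 1000 highest tested genes and 0 among the 100 highest. At 6 h these counts were 19 and 2, and at 24 h they were 68 and 18. In rank the median member was at position 18660.5 of the tested genes at 0 h, 8341.5 at 6 h and 2276 at 24 h. At least 100 FPKM were reached by 2 members at 0 h, 19 at 6 h and 75 at 24 h, and at least 1000 FPKM by 0, 1 and 8 members.

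Members that were higher at 0 h tended to be higher at 24 h as well. Across the 220 members, the log2(FPKM + 1) levels at 0 h and at 24 h correlated at a Pearson r of 0.747 and a Spearman rho of 0.733. The same was not worked out over all tested genes, so the members cannot be set beside them in this. Members that were lower at 0 h tended to rise by more, with a Pearson r of -0.20 and a Spearman rho of -0.261 between the 0 h level and the rise to 24 h. The early and late steps were hardly related in size (Pearson r 0.102, Spearman rho 0.165). These are correlations across genes that were all measured in the same libraries, and genes are not independent replicates. The last 2 relate differences to a level that is also part of them, namely the 0 h level in one case and the 6 h level in the other. The rule also keeps only steps of at least 1 log2 unit, which shapes both of these correlations.

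The early step had a median of 1.60 log2 units (quartiles 1.24 and 2.0, highest 5.68). The late step had a median of 1.78 (quartiles 1.38 and 2.57, highest 5.29). Over all tested genes the medians were 0.01 and 0.00. Of the members, 55 gained at least 2 log2 units in the early step, 93 in the late step and 27 in both. With all libraries included, 2 members gained at least 3 units in both. Which step was the larger depended on the scale. On the log2(FPKM + 1) scale the late step was larger in 131 members and the early step in 89. With 0.1 in place of 1 as the pseudocount, the late step was larger in 103 members and the early step in 117, and with a pseudocount of 5 the counts were 172 and 48. With each library scaled to the same summed FPKM the counts were 110 and 110. In plain FPKM ratios, with members that had no read at 0 h taken at a lower bound given below, the median member was 4.09-fold higher at 6 h than at 0 h, 3.70-fold higher at 24 h than at 6 h and 16.7-fold higher at 24 h than at 0 h.

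**Figure D2:**
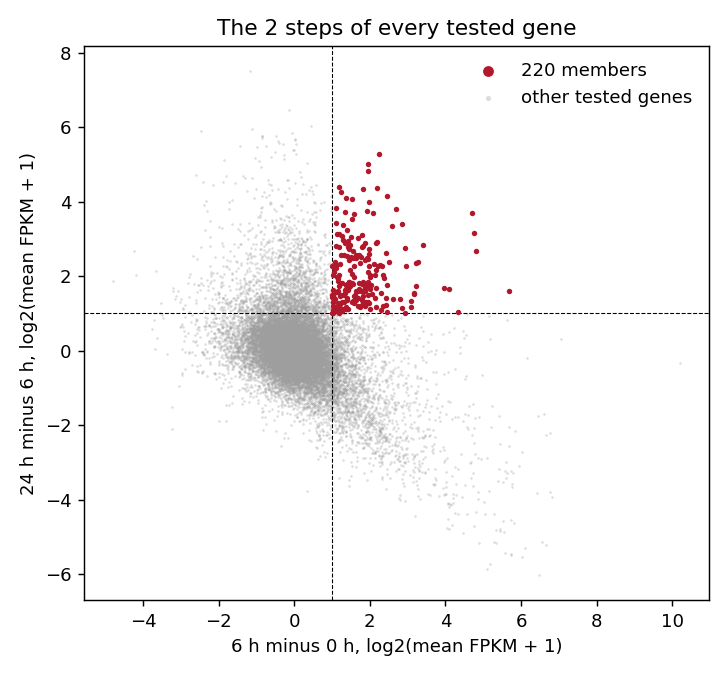
Late step (y axis, 24 h minus 6 h) against early step (x axis, 6 h minus 0 h), both in log2 of the mean FPKM plus 1, for the 220 members (red) and the other tested genes (grey). Dashed lines mark the limits of 1 log2 unit that define the members; many members lie close to a limit, and the members reach 5.68 on the x axis and 5.29 on the y axis.

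The limits fell in a continuous cloud of genes. The members with the smallest early steps gained 1.002, 1.004 and 1.008 log2 units, and the nearest genes that missed this limit gained 0.9999, 0.9957 and 0.9935. For the late step the corresponding values were 1.011, 1.013 and 1.022 inside and 0.9983, 0.9967 and 0.9942 outside. A step under 1.1 was found in 36 members, and 42 tested genes just outside had both steps of at least 0.9. The limit on the mean level could remove no gene. With 1 added before the log2, a gene that gains at least 1 log2 unit in both steps always has a mean above 1 FPKM. That 0 genes met both steps with a mean under 1 FPKM is therefore set by the rule. The lowest mean among the members was 2.59 FPKM.

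Limma, a linear model fitted to all tested genes on the log2(FPKM + 1) scale, was used to set the members beside all genes. A gene was called higher at a Benjamini-Hochberg adjusted p under 0.05 and a log2 difference of at least 1. At 6 h against 0 h, 216 members were called, where 9.36% of all tested genes were called higher. At 24 h against 6 h, 218 members were called, against 8.66% of all tested genes, and at 24 h against 0 h 219 members, against 11.9%. Both steps were called in 215 members and in 0.863% of all tested genes. With a pseudocount of 5, 116 members were called at 6 h against 0 h, beside 1366 of the 25362 tested genes. Both steps were then called in 112 members and in 112 of all tested genes. The rule used the same differences, so these counts say only that the libraries of a time lay close together. In 217 members all 6 h libraries were above all 0 h libraries, which held for 35.8% of tested genes, and in 218 members all 24 h libraries were above all 6 h libraries, which held for 30.8%. Both separations held in 216 members and in 8.92% of tested genes.

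The 5 members that missed a call did so for different reasons. In 1 of them the libraries were tight, with 5.61, 5.68 and 6.38 FPKM at 0 h, 12.7, 11.3 and 14.4 FPKM at 6 h and 63.2, 61.0 and 71.4 FPKM at 24 h, and the limma difference of its early step, 0.998, lay just under the limit. In another the limma difference of the late step was 0.959. In the remaining 3 the adjusted p of the early step was not under 0.05, and 1 or 2 of the 6 h libraries carried the 6 h mean. One of these had 0.461, 0 and 0.510 FPKM at 0 h, 6.67, 0.159 and 0.595 FPKM at 6 h and 7.74, 7.29 and 8.97 FPKM at 24 h. Another had 0.0335, 0.127 and 0.111 FPKM at 0 h, 3.18, 0.0346 and 2.11 FPKM at 6 h and 0.933, 19.4 and 1.13 FPKM at 24 h, so that its 24 h mean came mostly from 1 library. These profiles overlap between times and are members by their means alone.

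The steps were also read in libraries that had no part in the choice. Genes were chosen by the same rule from 2 replicate numbers of every time, and their steps were then measured in the libraries of the remaining number. Held out in turn, numbers 1, 2 and 3 gave 217, 228 and 214 chosen genes, of which 199, 207 and 200 were among the 220 members. In the held-out libraries 215, 227 and 211 of the chosen genes were higher at each later time, beside 19.7%, 20.3% and 22.1% of all tested genes, and both steps were at least 1 log2 unit in 176, 173 and 176 of them. These are 81.1%, 75.9% and 82.2% of the chosen genes, where 0.903%, 0.796% and 0.942% of all tested genes had such steps in the same libraries. The median held-out early step was 1.58, 1.66 and 1.62 log2 units, and the median held-out late step 1.84, 1.73 and 1.95. The 3 choices share libraries and most of their genes, so the 3 readings are not independent of each other.

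Identifiers are printed for 6 members only, the 2 with the largest difference in each of the comparisons of 6 h with 0 h, 24 h with 6 h and 24 h with 0 h, among members with a mean of at least 10 FPKM at the later time and no overlap between the times compared. In all 6, the libraries of 0 h, 6 h and 24 h did not overlap.

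MD13G1200600 had the largest early step and the highest 24 h level of all members. It was at 23.4, 24.9 and 20.2 FPKM in the 0 h libraries, at 1123, 1304 and 1243 FPKM at 6 h and at 3525, 3369 and 4277 FPKM at 24 h. Most of its rise on the log2 scale was in place at 6 h, with an early step of 5.68 and a late step of 1.61. In FPKM, however, 32.4% of its increase to 24 h was present at 6 h. It was the 1 member above 1000 FPKM at 6 h.

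MD16G1081100, with the next largest early step, was nearly silent in bagged peel. Only 34 reads stood behind its 0 h values of 0.422, 0.313 and 0.934 FPKM, against 2726 reads at 6 h and 16643 at 24 h. It had 34.8, 43.6 and 50.5 FPKM at 6 h and 244, 249 and 349.7 FPKM at 24 h. Its early step was 4.82 and its late step 2.68 log2 units, and 15.1% of the FPKM increase was present at 6 h.

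MD04G1003300 had the largest late step. Its values were 4.49, 4.10 and 3.15 FPKM at 0 h, 19.0, 21.8 and 25.7 FPKM at 6 h, and 772, 756 and 1197 FPKM at 24 h. The early step was 2.24 and the late step 5.29 log2 units, and 2.02% of its FPKM increase was present at 6 h, the lowest share among the members. MD17G1272100 had a similar course at a higher level, with 16.8, 13.6 and 20.4 FPKM at 0 h, 64.6, 58.2 and 81.9 FPKM at 6 h, and 2085, 2052 and 2633 FPKM at 24 h. Its early step was 1.95 and its late step 5.03 log2 units, with 2.29% of the increase present at 6 h.

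MD08G1168600 and MD07G1306900 rose most over the whole day, and both took large steps in each interval. The values of MD08G1168600 were 2.01, 2.41 and 1.48 FPKM at 0 h, 59.1, 87.4 and 80.6 FPKM at 6 h, and 799.5, 850.5 and 1348 FPKM at 24 h. Its steps were 4.69 and 3.71 log2 units. MD07G1306900 was at 2.02, 2.94 and 2.63 FPKM at 0 h, at 82.4, 92.1 and 108 FPKM at 6 h and at 642, 648 and 1278 FPKM at 24 h. Its steps were 4.75 and 3.17 log2 units. With all libraries included, these are the 2 members that gained at least 3 log2 units in both steps. For MD07G1306900 this rests on the third 24 h library, and its late step is under 3 without that library. In all 6 named members the third 24 h library was the highest, and as a ratio it lay furthest above the other 2 in MD07G1306900.

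**Figure D3:**
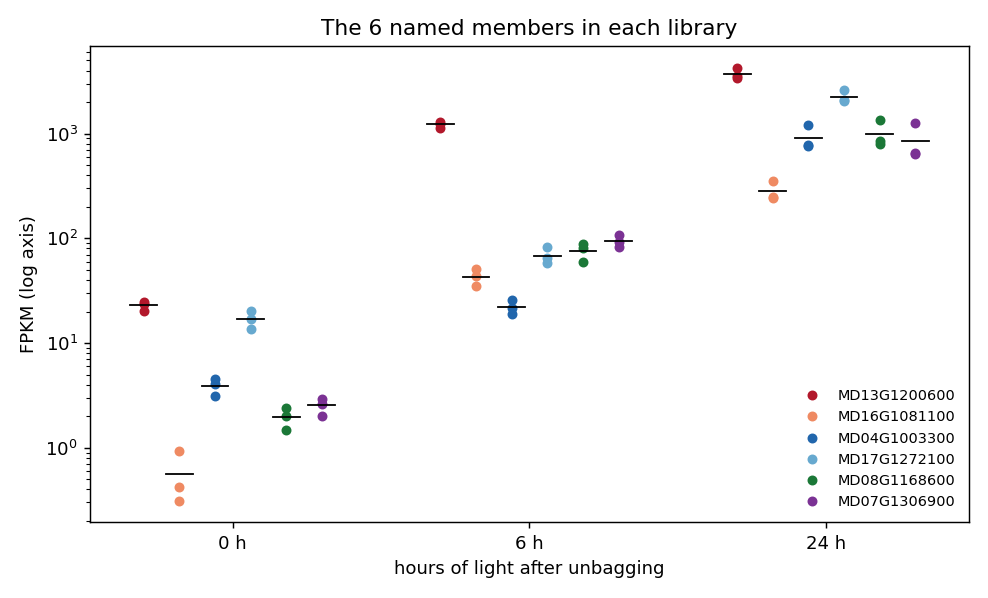
FPKM (log axis) of the 6 named members in each library at 0 h, 6 h and 24 h, with 1 point per library and the mean of 3 libraries as a black line. MD13G1200600 made most of its log2 gain by 6 h, while MD04G1003300 and MD17G1272100 gained most after 6 h.

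The 10 members with the highest 24 h means held 42.5% of the members' summed FPKM at 24 h. Their means ran from 1.97 to 278 FPKM at 0 h (median 22.2), from 22.2 to 1223 FPKM at 6 h (median 127) and from 908 to 3724 FPKM at 24 h (median 1759). Early steps ran from 1.69 to 5.68 and late steps from 1.53 to 5.29 log2 units, and the late step was the larger in 6 of the 10. The member with the highest 0 h level, picked out after its values were seen, had 256, 294 and 284 FPKM at 0 h, 897, 885 and 912 FPKM at 6 h, and 2362, 2226 and 3648 FPKM at 24 h. It shows that not all members started near zero: 52 members had at least 10 FPKM at 0 h.

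The members were also sorted by their starting level. The 46 members under 1 FPKM at 0 h had median levels of 0.313, 3.35 and 28.8 FPKM at the 3 times. The 122 members at 1 to 10 FPKM had medians of 3.65, 15.0 and 56.4 FPKM, and the 52 members at 10 FPKM or more had medians of 21.9, 74.5 and 321 FPKM. Their median early steps were 1.70, 1.57 and 1.62 log2 units and their median late steps 2.36, 1.75 and 1.62. In plain FPKM the classes differed: the median ratio of 6 h over 0 h was 10.9, 3.93 and 3.17 (in the lowest class over members above 0 at 0 h), and that of 24 h over 6 h was 5.70, 3.51 and 3.08. A low gene has to rise further in FPKM ratio to meet the rule, since 1 is added before the log2 is taken. The classes are defined by the 0 h level, which the rule also uses.

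At 0 h, 6 members had no read in any library. A count of 0 allows up to 3 reads over the 0 h libraries together, which corresponds to 0.0425 to 0.208 FPKM for genes of these lengths and covers counting error only. Their means were 1.38 to 16.2 FPKM at 6 h and 18.8 to 55.0 FPKM at 24 h. Against that limit they were at least 6.64-fold to at least 198-fold higher at 6 h than at 0 h, and at least 166-fold to at least 948-fold higher at 24 h than at 0 h. The one with the least at 6 h had 1.48, 1.27 and 1.39 FPKM at 6 h, from 20 reads in all, and 32.9, 37.3 and 64.9 FPKM at 24 h, from 610 reads. Depth was not limiting for most others: 164 members had at least 100 reads over the 0 h libraries and 33 had under 30, while 1 member had under 30 reads at 6 h.

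The timing of the gain differed among members. At 6 h the median member had made 21.4% of its FPKM increase from 0 h to 24 h, with quartiles of 12.2% and 29.6% and a range of 2.02% to 47.8%. The share was under 10% in 39 members and over 40% in 6. The rule limits this share: a late step of at least 1 log2 unit holds it under 50% in every member. The first interval lasted 6 h and the second 18 h, so that a gain at an even pace in FPKM would put 25% at 6 h. In 137 members the gain per hour in FPKM was greater in the second interval, and in 83 in the first. Because of that limit, this split is partly set by the rule. The median gain was 1.82 FPKM per hour in the first interval and 2.48 in the second. On the log2 scale the order was the other way round, with a median of 0.266 log2 units per hour in the first interval and 0.0987 in the second, and with a faster first interval in 215 of the 220 members. The rule itself requires at least 1 unit in the shorter interval and thereby favours this. These are mean rates between sampling times, and the course within an interval was not measured.

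**Figure D4:**
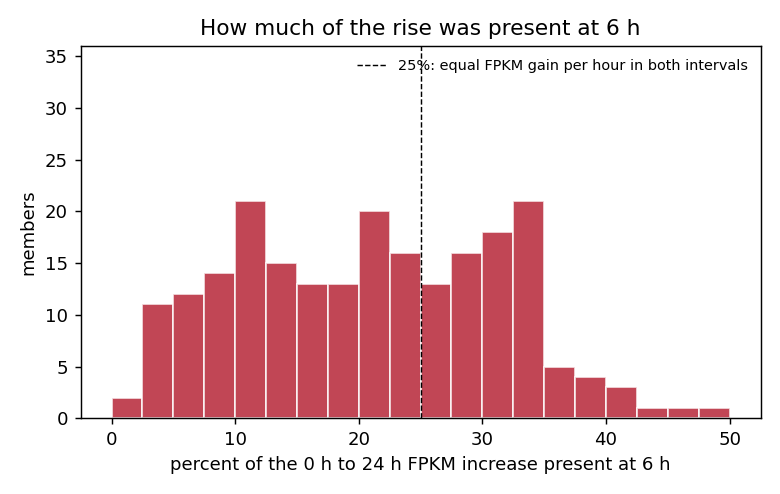
Number of members (y axis) by the percent of their FPKM increase from 0 h to 24 h that was present at 6 h (x axis, bins of 2.5 percentage points). The dashed line at 25% marks an equal gain per hour in both intervals, and 137 members lie below it and 83 above it. The rule holds every member under 50%.

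Libraries of the same time were also compared over the members. The rule uses means and does not directly set the order of libraries within a time. It can still favour genes in which a library of wide spread, such as the third of 24 h, lay high. At 24 h, the third library was the highest of its time in 147 of the members (66.8%), against 46.2% of all tested genes. Its median log2 ratio to the mean of the other 24 h libraries was 0.26 over the members and 0.02 over all tested genes. It was more than 1.5 times that mean in 40 members (18.2%) and in 8.87% of tested genes, and that mean was more than 1.5 times the third library in 13 members (5.91%) and in 17.9% of tested genes. The third library was above its time's mean in 69.5% of the members (median deviation 0.17 log2 units), 60.6% of the genes that rose only in the early step (0.07), 60.3% of those that rose only in the late step (0.07) and 52.3% of all tested genes (0.02). In the 214 genes chosen without replicate number 3, the median ratio was 0.20, with 136 genes above and 78 below. The third library was above the mean of the other 24 h libraries in 55 of the 74 members with the largest late steps in those libraries, in 42 of the 73 with middle steps and in 55 of the 73 with the smallest. The greater summed FPKM of the third 24 h library stands beside these values, and its part in them was not tested.

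A smaller shift of this kind was seen at 6 h. The first 6 h library had a median log2 ratio to the other 6 h libraries of -0.08 over the members and 0.01 over all tested genes, and it was the lowest of its time in 124 members (56.4%), beside 34.0% of all tested genes. In the 217 genes chosen without replicate number 1, it was below the mean of the other 6 h libraries in 157. At 0 h the median ratios of the 3 libraries over the members were -0.02, 0.01 and 0.00, close to those over all tested genes. Libraries of the same time thus differed over the members as a group at 6 h and 24 h, and hardly at 0 h.

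**Figure D5:**
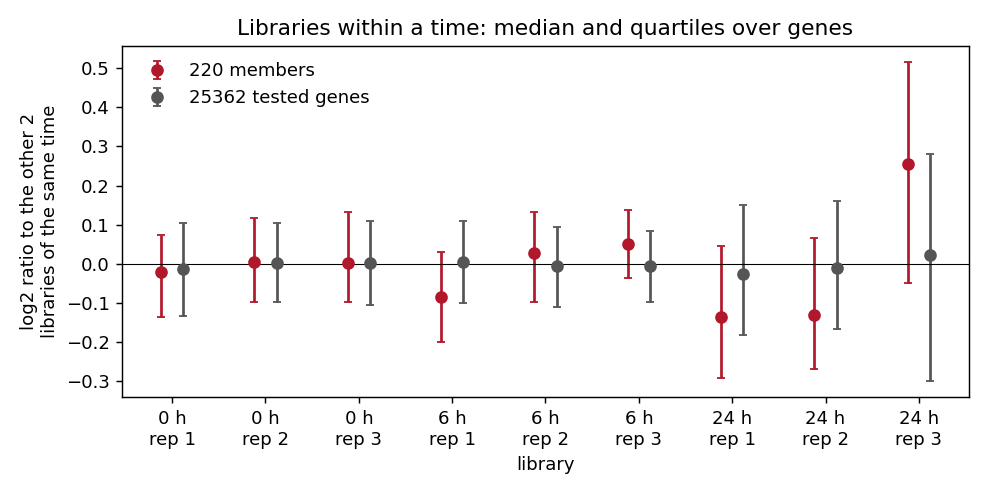
Log2 ratio of each library to the mean of the other 2 libraries of its time (y axis, FPKM plus 1), as the median and quartiles over the 220 members (red, left) and all 25362 tested genes (dark grey, right). The members' median is 0.26 in the third 24 h library and -0.08 in the first 6 h library, while the medians over tested genes stay between -0.03 and 0.03.

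Relative spread between libraries was near that of other genes at the light times. The median coefficient of variation over the members was 12.1% at 0 h (214 members above 0), 8.45% at 6 h and 15.8% at 24 h, beside 8.93%, 7.99% and 15.9% over all tested genes. At 0 h the median level of the members was also the lower one, at 3.79 FPKM beside 8.23 FPKM, and its part in the spread was not tested.

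In most members the late step did not rest on the third 24 h library alone. Without it the median late step was 1.78 log2 units, as with it. A late step of at least 1 was left in 204 of the 220 members, which had been chosen with that library included. With each library scaled to the same summed FPKM, the median late step was 1.60.

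Compared with genes that rose once, the members were lower at the start. The 1029 tested genes that gained at least 1 log2 unit in the early step and moved by less than 1 in the late step had median levels of 5.48, 18.8 and 16.8 FPKM at the 3 times. The 1669 genes that rose only in the late step had medians of 5.97, 5.78 and 23.6 FPKM. These groups are cut from the same values as the members, so the levels are descriptive. The gene lengths that fit the FPKM values were not used by the rule. Their median was 1430 bases over the members (quartiles 961 and 1950), 1539 over the early risers, 1413 over the late risers and 1533 over all tested genes.

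In the naming of this apple annotation the number after MD stands for the chromosome, with 00 for sequence that was not placed on one. The genome build is not given in the sources used here, so no coordinates are printed. Members occurred under all 18 numbers. They were 1.67% of the tested genes under 06 (20 of 1197) and 1.53% under 08 (19 of 1239), and 0.374% under 17 (5 of 1337) and 0.489% under 16 (7 of 1431), beside 0.867% in all.

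Some members had close neighbours among the members. Counting members whose identifiers lay at most 5 places apart in the sorted list, 22 members formed 10 groups, 8 of 2 members and 2 of 3. Among the members, MD04G1003300 belonged to a group of 3. Its partners had means of 26.4 and 24.0 FPKM at 0 h, 176 and 178 FPKM at 6 h, and 2485 and 1900 FPKM at 24 h. They had late steps of 3.81 and 3.41 log2 units, against 5.29 in MD04G1003300, and early steps of 2.69 and 2.84, against 2.24. Levels within a group could be alike or far apart: the higher over the lower 24 h mean ran from 1.14 to 222, was under 2 in 4 groups and at least 5 in 4. It is not stated how reads shared by near-identical or overlapping neighbours were counted, so values of neighbouring members may not be independent of each other.

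Of the tested genes directly before or after a member in the sorted identifiers, 265 were not members, and their median early and late steps were 0.05 and 0.08 log2 units. Both steps were above 0 in 78 of them (29.4%), beside 20.9% of all tested genes, and a rise of at least 1 log2 unit from 0 h to 24 h was found in 41 (15.5%), beside 12.04% of all tested genes.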

How the data were processed

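RNA of apple peel was sequenced at 3 times with 3 libraries each. Trizol was used for extraction and an Illumina mRNA kit for the libraries, per the labels' protocols. The authors deposited FPKM values per gene and library. HISAT2 and Cufflinks are the tools in the submitters' processing notes. Their versions, the build, the annotation and any filter or strand setting were not stated.

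Whole reads and gene lengths were recovered from the FPKM values: 100.0% of positive values of the 37142 genes above 0 lay within 0.1 of a whole read at a whole length. The recovery and the limma fit were tested on simulated data. Libraries were grouped by their titles. One limma 3.58.1 model (R 4.3.3) with a mean per time and an intensity trend (6 residual degrees of freedom) was fitted to log2(FPKM + 1) of the 25362 genes whose mean was at least 1 FPKM. The pseudocount of 1 lowers the differences of low genes. Calls needed an adjusted p under 0.05 and a log2 difference of at least 1. Other steps used Python 3.11.15. Named members are the 2 with the largest difference in each of 3 comparisons, with at least 10 FPKM at the later time and no overlap.

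The members and lists were chosen with earlier results of these data known. Gene lists and tissue markers were not run, since identifiers could not be paired with functions. Alternatives covered the pseudocount, the filter, scaling, the variance trend, recovered reads, a replicate block and leaving out libraries.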

Additional observations from a re-analysis of the deposited data

How the results depend on the processing

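The alternatives were planned, except the count of the larger step on other scales and the within-time ratios in genes chosen without a replicate number, which were chosen after seeing the data. With a pseudocount of 5, which shrinks low genes by construction, 114 genes met the rule, all of them members. Under it, 116 members and 1366 of all 25362 tested genes were called at 6 h against 0 h, and 112 and 112 at both steps. With a pseudocount of 0.1, 319 genes met it, including all 220 members. Steps of at least 1.5 left 91 genes. Equal summed FPKM shifted the median tested gene by -0.15 log2 units in both comparisons of 24 h and left 195 of the members. Quantile normalization left 194. Of all 220 members, 191 and 186 were called at both steps under these scalings, beside 195 and 189 of all tested genes. The median early step was 1.98 and 1.09 with pseudocounts of 0.1 and 5, and the median late step was 1.59 with 5. With equal summed FPKM the median levels were 3.99, 15.8 and 54.6 FPKM and the median late step 1.60. With single libraries left out there were 212 to 224 genes by the rule. Members called were 206 to 216 at 6 h against 0 h, 203 to 218 at 24 h against 6 h and 219 to 220 at 24 h against 0 h. Over all tested genes these counts were 2326 to 2408, 2153 to 2277 and 2943 to 3089. Both steps were called in 200 to 213 members and in 210 to 220 of all tested genes. Median 0 h levels were then 3.75 to 3.88 FPKM and median early steps 1.60 to 1.64. Limma-voom on the recovered reads called 216 members at both steps, beside 299 of all tested genes. Over all tested genes it called 2899 higher in the early step and 2657 in the late step. The replicate block gave 215, as reported; deviations of same-numbered libraries correlated at -0.06 to 0.08, so the numbers do not pair the libraries. Reads under 30 limit the 0 h values of 33 members.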
